A study of Drosophila melanogaster with 2 samples.

Results

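The elav family of Drosophila melanogaster holds 3 genes for neuronal RNA-binding proteins, elav, fne and Rbp9. Peaks of the homeodomain protein CG32532 were looked for at each of them in data from chromatin immunoprecipitation and sequencing (ChIP-seq). The genes were selected on family membership, with their peaks in these data already known, so the peak counts and signals below are descriptions and carry no test. They are 3 of 13968 protein-coding genes, and 5 of the 5325 peaks of the replicated set had their summit nearest to a transcription start site (TSS) of one of them. Both libraries came from whole embryos aged 8 to 24 h of a transgenic strain that makes CG32532 fused to eGFP, and an anti-GFP antibody recovered the fusion protein with its DNA. The age is that of the source label, and a separate age field in the labels, which gives a far higher value, was not used. There is 1 group with 2 biological replicates, no second genotype and no treatment, and the labels do not give the promoter of the transgene. In whole embryos, strong binding in few cells and weak binding in many cannot be told apart. The labels point to a possible control experiment, which was not used here, and the depth of the libraries is unknown because the peak lists hold no read counts.

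ELAV family proteins carry RNA recognition motifs and bind U-rich stretches of transcripts. They act in neurons on alternative splicing and on the choice of 3′ ends. ELAV is present in nearly all neurons once they have left the cell cycle and is widely used as a neuronal marker. FNE (found in neurons) is a close relative that can take over part of the work of ELAV in the nucleus. RBP9 is known from the nervous system of older animals and from the ovary, where it is needed for egg development. All of this is background on the proteins, and the present data concern DNA at their genes.

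The 2 bound genes differed in how their peaks lay. At elav (FBgn0260400, X, 509235 to 523226, minus strand) the 2 strong peaks flanked the main TSS, 863 bp apart, with 1 weak peak farther upstream. At fne (FBgn0086675, X, 12917477 to 12950417, plus strand) there were 2 weaker peaks, in a long intron and just upstream of an internal promoter. Rbp9 (FBgn0010263, 2L, 2954762 to 2968434, plus strand) had 0 peaks in each of the 4 thresholded sets. At least 1 replicated peak fell to 25.2% of protein-coding genes, at least 2 to 7.27% and at least 3 to 2.91%. The gene CG32532 itself, also on X, had 2 replicated peaks. Since the family genes were chosen with these peaks known, nothing is read from their own counts against these shares.

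The sequences around the summits of the 4 peaks that carry these results are shown to let the base composition and motif content of the elav and fne sites be compared. Each is 200 bp of assembly dm6 centred on the summit, 5′ to 3′ on the strand of the gene. Capitals mark TAATTA, a homeodomain core site, and GAGAG, the core bound by the Trithorax-like protein, on either strand. The other motifs that would have been put in capitals, TATCGATA, GGTCACACT and CAGCTG, are not in these windows.
elav, upstream of the TSS (chrX:523385-523584, minus strand): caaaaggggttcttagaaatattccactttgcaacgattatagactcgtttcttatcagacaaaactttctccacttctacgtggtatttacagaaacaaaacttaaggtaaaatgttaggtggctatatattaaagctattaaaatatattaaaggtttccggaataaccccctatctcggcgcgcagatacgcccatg
elav, first intron (chrX:522522-522721, minus strand): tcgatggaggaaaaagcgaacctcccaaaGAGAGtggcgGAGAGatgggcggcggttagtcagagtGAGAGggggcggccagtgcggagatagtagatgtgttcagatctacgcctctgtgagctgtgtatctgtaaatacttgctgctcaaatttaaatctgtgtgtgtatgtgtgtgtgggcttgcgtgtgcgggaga
fne, long intron (chrX:12925906-12926105, plus strand): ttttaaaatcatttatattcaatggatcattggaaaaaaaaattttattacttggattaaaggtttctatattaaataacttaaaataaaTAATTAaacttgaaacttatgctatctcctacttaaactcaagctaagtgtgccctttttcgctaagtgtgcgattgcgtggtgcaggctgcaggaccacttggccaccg
fne, upstream of the internal promoter (chrX:12937992-12938191, plus strand): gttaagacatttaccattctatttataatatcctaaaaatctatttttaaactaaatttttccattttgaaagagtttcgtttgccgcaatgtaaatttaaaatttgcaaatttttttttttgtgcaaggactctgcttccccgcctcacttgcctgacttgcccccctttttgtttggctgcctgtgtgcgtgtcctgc
The elav pair is unlike in composition, with 36.5% GC upstream of the TSS and 52.0% GC in the intron. The fne windows had 32.5% and 36.0% GC, and the median of all replicated windows was 37.0%.

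The peak upstream of the elav TSS was the highest of the family. Its summit (X, 523485) lay 259 bp upstream of the TSS from which 3 of the 4 annotated elav transcripts start. The same position starts lncRNA:enrr, a long noncoding RNA on the same strand. The peak spanned X, 523286 to 523672, and its signal was 411 in replicate 1 and 811 in replicate 2, in the units of the authors' peak caller. The scale of that signal is not stated, so each value was divided by the median replicated peak of its replicate, 67.8 and 116. This gave 6.06 times the median in replicate 1 and 6.98 times in replicate 2, a mean of 6.52 ± 0.646 (SD, n = 2). Of all replicated peaks 98.0% had a lower pooled signal, and the peak was in the own set of each replicate, the peaks past the score within that replicate alone. The 2 replicates placed its summit 12 bp apart, where the median gap over replicated peaks was 25 bp.

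The intronic elav peak came second. Its summit (X, 522622) lay 604 bp downstream of the same TSS, in an intron of elav and of lncRNA:enrr. Its signal was 295 in replicate 1 and 351 in replicate 2, which are 4.34 and 3.02 times the median peak (3.68 ± 0.938, SD, n = 2). It was in both replicates' own sets, and the summits fell 1 bp apart. At 240 bp it was narrower than the median replicated peak of 360 bp, and 28.5% of replicated peaks were of this width or less. The upstream peak, at 387 bp, was among the 1.71% of replicated peaks wider than 360 bp.

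In both replicates the upstream elav peak exceeded the intronic one, but by different amounts. The ratio of their signals was 1.40 in replicate 1 and 2.31 in replicate 2. Both peaks were measured in the same libraries, and the mean of this ratio was 1.85 ± 0.648 (SD, n = 2). With n = 2 no test of the difference was made. The third elav peak (X, summit 524606) lay 1380 bp upstream, with signals of 37.3 and 55.2, or 0.549 and 0.474 times the median (0.512 ± 0.053, SD, n = 2). It stood just inside the replicated set, with an IDR score of 831 against a minimum of 830, and its score was 1000 in the list behind the optimal set. The score comes from the irreproducible discovery rate (IDR), which compares peak ranks in a pair of lists. It is higher for peaks that rank high in both lists, and not for matching ranks alone. Neither replicate's own set held this peak, as for 7.57% of replicated peaks.

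The elav locus overlaps another gene. The gene arg, for arginase, runs along the opposite strand across nearly all of elav and beyond its TSS, and the summits upstream of elav lie within an intron of arg. The TSS of arg is 10850 bp from the nearest elav TSS, and no replicated peak was nearest to it. Where peaks went to the nearest gene body in place of the nearest TSS, with a tie going to the nearer TSS, elav kept 1 peak, the one inside it. On the other side, the neighbouring gene CG4293 had 0 replicated peaks as well. The second elav TSS (X, 520285), which starts 1 transcript, had no peak past the score in any list. Its nearest ranked peaks lay 61 and 340 bp upstream with pooled signals of 42.3 and 47.3 and scores of 202 and 91 in the list behind the optimal set.

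**Figure D1:**
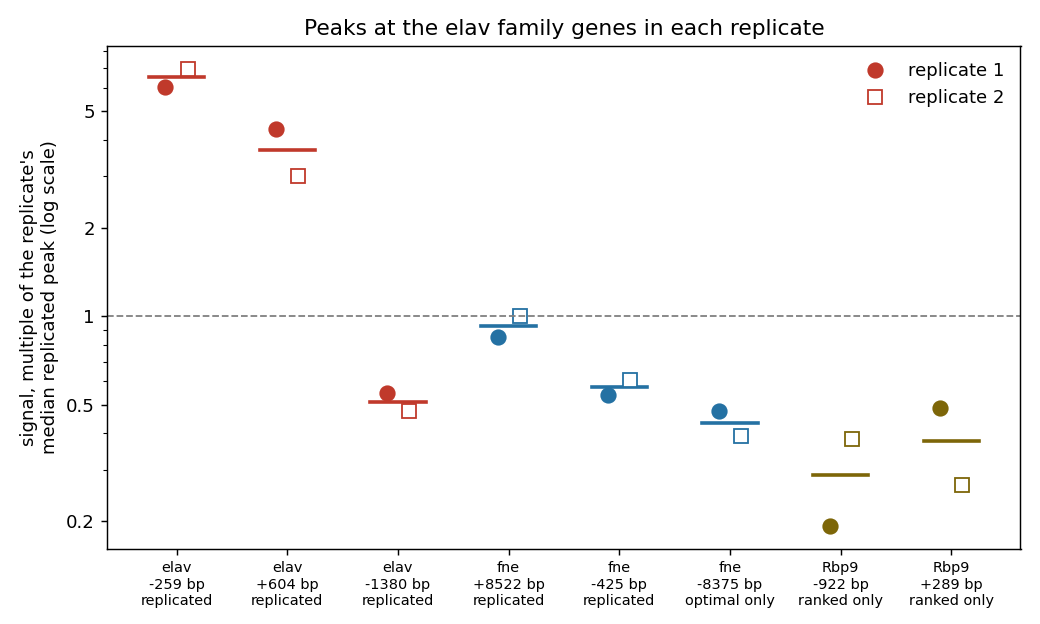
Signal of each peak as a multiple of the median replicated peak of its replicate, on a log axis, for replicate 1 (filled circles) and replicate 2 (open squares), with the mean of both as a line. Labels give the offset from the nearest TSS of the gene and the list that holds the peak. The upstream elav peak sits at 6.06 and 6.98, the intronic one at 4.34 and 3.02, and the fne and Rbp9 peaks lie at 1.00 or lower.

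At fne the stronger peak lay deep in an intron. Its summit (X, 12926006) was 8529 bp downstream of the first TSS and 12511 bp upstream of the internal promoter. The signal was 57.5 in replicate 1 and 116 in replicate 2, which are 0.847 and 1.00 times the median peak (0.924 ± 0.108, SD, n = 2). Its score was 1000 in replicate 2 and 671 in replicate 1, so the own set of replicate 2 held it and that of replicate 1 did not. This is the same pattern of membership as for 25.2% of replicated peaks. In pooled signal 45.1% of replicated peaks were lower, which places it near the middle of the set.

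The second fne peak stood by the internal promoter. Its summit (X, 12938092) lay 425 bp upstream of the TSS at 12938517, where 5 of the 11 annotated fne transcripts start. The signal was 36.6 in replicate 1 and 70.6 in replicate 2, or 0.540 and 0.607 times the median (0.574 ± 0.047, SD, n = 2). Its score was 1000 in replicate 2 but 55 in replicate 1, and 873 in the comparison behind the replicated set. The signals of the 2 fne peaks kept a similar ratio in both libraries, 1.57 in replicate 1 and 1.65 in replicate 2. Without replicate 2 neither fne peak would be called, since the own set of replicate 1 held 0 peaks at fne.

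The first fne promoter showed no peak past the score. The gene on that side, CG4645, had 1 replicated peak 39 bp from its TSS, at 1.22 and 0.438 times the median, and hec on the other side had 0. The ranked peak nearest to it (summit 264 bp upstream of the first TSS) had signals of 28.6 and 26.4 and scores of 281 and 202 in the lists of replicates 1 and 2. Another fne peak (X, summit 12930142) was in the optimal set and not in the replicated set. Its signals were 32.3 and 45.5, or 0.434 ± 0.060 times the median (SD, n = 2), with a score of 894 in the list behind the optimal set and 657 in that behind the replicated set. In the latter list, the 657 of this peak was the highest member score below the minimum of 830, and the 831 of the third elav peak was the lowest above it. The annotation places a copy of the transposon HMS-Beagle, 7057 bp long, in this intron (X, 12930633 to 12937689). The summit in the optimal set lay 491 bp before it and the promoter summit 403 bp after it, and 0 summits of any ranked list lay inside it. Short reads are hard to place in repeated sequence, and the part of this in the absence of summits was not tested.

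**Figure D2:**
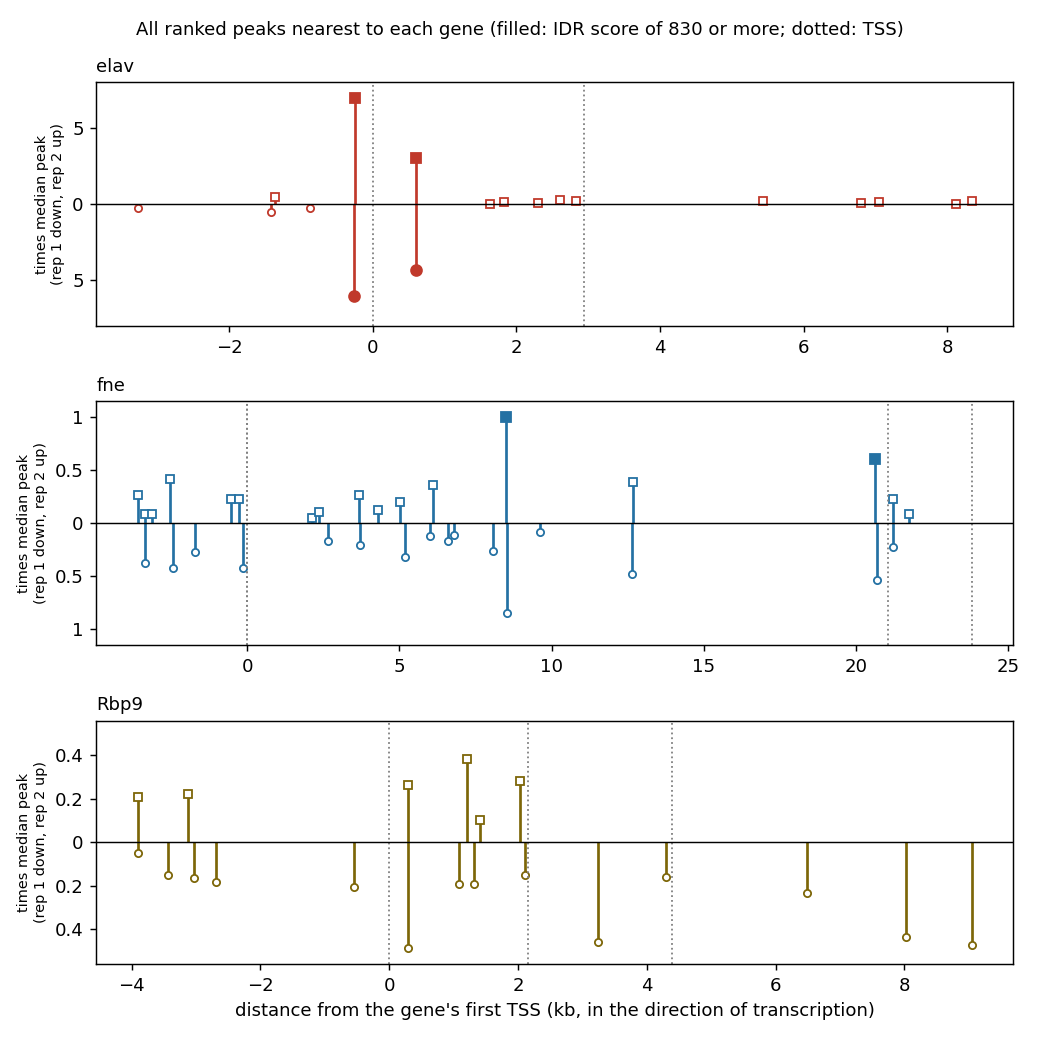
Every ranked peak nearest to elav, fne and Rbp9, by distance from the first TSS in kb in the direction of transcription, with its height as a multiple of the median replicated peak (replicate 1 downwards, replicate 2 upwards). Filled symbols have an IDR score of 830 or more in the replicate's own list and dotted lines are TSS. elav has 2 filled peaks in each replicate, fne has 2 in replicate 2 and 0 in replicate 1, and Rbp9 has 0 in both.

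Rbp9 had ranked peaks in every list, and none reached the score. The list of replicate 1 held 14 peaks nearest to Rbp9 and that of replicate 2 held 6. Some of these peaks lay upstream of Rbp9, within the neighbouring gene lilli. The highest of replicate 1, with a signal of 33.0, lay 287 bp downstream of the first TSS (rank 11155 of 113638). The highest of replicate 2, with a signal of 44.5, lay elsewhere, 946 bp upstream of the middle TSS (rank 9853 of 85214). The best scores were 320 in replicate 1, for a peak 1097 bp downstream of the middle TSS, and 393 in replicate 2, for one 123 bp upstream of it. The replicates thus put their strongest and their best-scored peaks at different places. The strongest peak of replicate 1 did have a match in replicate 2, with a summit 2 bp away and a signal of 31.0.

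In the pooled lists the strongest Rbp9 peak (2L, summit 2955989) had a signal of 65.7, in an intron. Its matched signals were 13.1 in replicate 1 and 44.5 in replicate 2, and its scores were 76 in the list behind the replicated set and 537 in that behind the optimal set. The next (2L, summit 2955051), in a noncoding part of an Rbp9 exon, had a pooled signal of 60.8, replicate signals of 33.0 and 31.0, which are 0.487 and 0.266 times each replicate's median, and scores of 479 and 381. A pooled signal below 65.7 occurred in 205 replicated peaks (3.85%). The replicated summit closest to an Rbp9 TSS was 10077 bp away and nearest to lilli, the next gene upstream, which had 4 replicated peaks. Ts, on the other side, had 0. The stretch of sequence nearest to an Rbp9 TSS was 13730 bp long and that of elav 11678 bp.

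**Figure D3:**
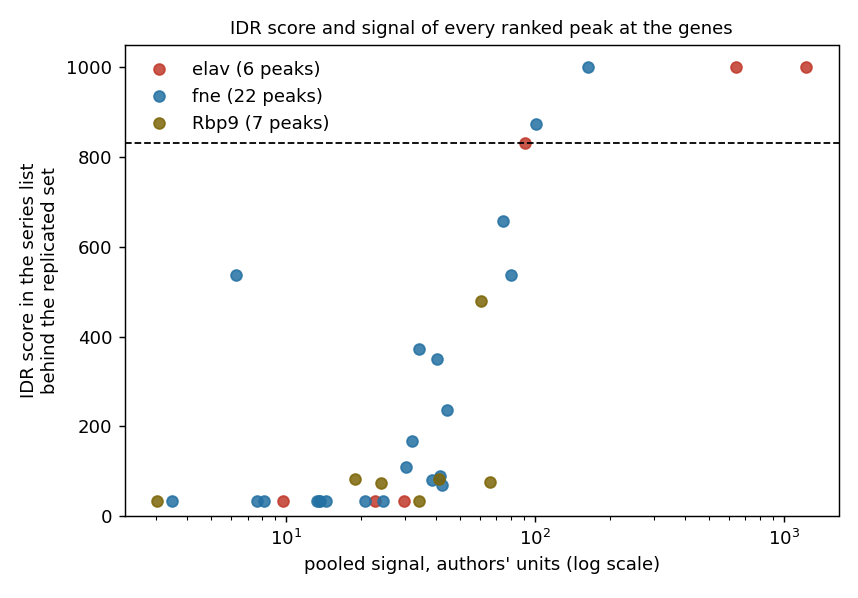
IDR score against pooled signal (log axis, authors' units) for every peak of the series list behind the replicated set that is nearest to elav (6 peaks), fne (22 peaks) or Rbp9 (7 peaks), with the minimum score of 830 as a dashed line. 3 elav and 2 fne peaks lie above the line, the lowest at 831, and the best Rbp9 peak lies at 479.

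The length of sequence that can collect a peak differs between genes. The stretch nearer to a gene's own TSS than to any other had a median of 4336 bp over protein-coding genes, against 35599 bp for fne. With genes split into 10 classes by this length, 29.8% had a replicated peak in the class that holds elav, 35.6% in that of Rbp9 and 42.3% in that of fne. Within the family the longest stretch was that of fne and the highest peak was at elav. Whether the length had a part in the peaks was not tested.

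Set in order by mean multiple, the family's replicated peaks ran from the upstream elav peak (6.52) through the intronic elav peak (3.68), the fne intron (0.924) and the fne internal promoter (0.574) to the distal elav peak (0.512). The last 2 changed places between libraries: replicate 1 gave 0.540 at fne and 0.549 at elav, and replicate 2 gave 0.607 and 0.474. Their order is therefore within the spread of the replicates. The strongest elav peak was 7.16 times the strongest fne peak in replicate 1 and 6.98 times in replicate 2, each in multiples of the replicate's median. Log2 ratios of replicate 2 to replicate 1 ran from -0.53 at the intronic elav peak to 0.24 at the fne intron, inside the SD of 0.551 over all replicated peaks.

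**Figure D4:**
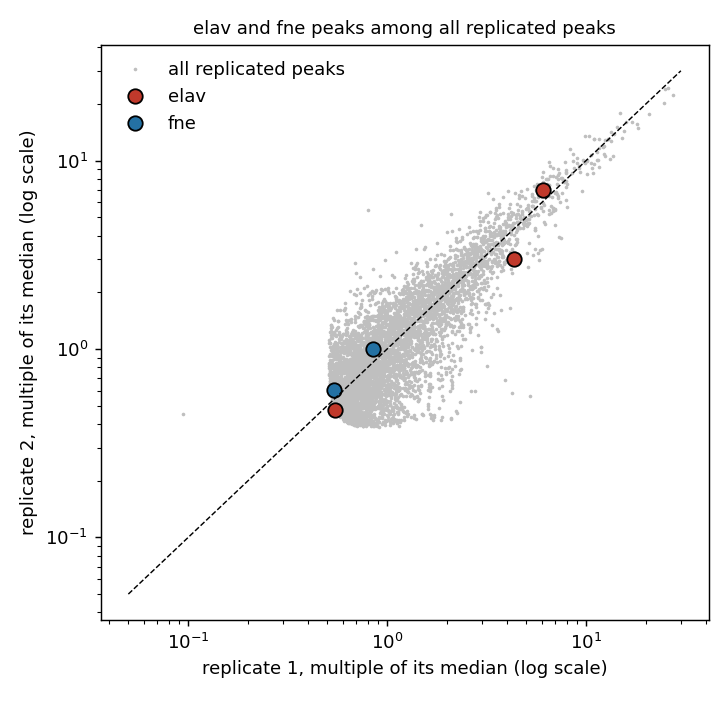
Signal of all replicated peaks found in both ranked lists (grey, 5279 peaks) in replicate 1 against replicate 2, as multiples of each replicate's median on log axes, with elav (red) and fne (blue) peaks and the line of equality. The elav pair lies towards the upper end, and the other 3 member peaks lie at or below the median of both replicates.

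The genes whose strongest replicated peak was most like that of elav were papi, osa and CG31612, by the distance between log2 multiples over the 2 replicates among 3500 genes. papi, a piRNA pathway gene, had 6.03 and 6.85 times the median, osa, a subunit gene of a chromatin remodelling complex, 6.15 and 7.09, and CG31612 5.92 and 6.89. Most like fne were Sap130 (0.852 and 1.00), dysf, a transcription factor gene of the trachea (0.840 and 0.984), and CG8180 (0.843 and 0.974). This likeness is one of peak height alone.

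Motif content did not set the 5 summit windows of the family apart as one group. TAATTA was in the fne intron window alone, where the core was present once, and 15.2% of all replicated windows and 14.0% of the 200-bp stretches upstream of 19276 protein-coding TSS hold it. GAGAG was in the elav intron window alone, at 3 places, and 25.2% of replicated windows and of promoter stretches hold it. The shorter TAAT, which TAATTA contains on both strands, is held by 86.1% of replicated windows. It was found 4 times upstream of elav, 5 times in the fne intron and 1 time by the fne promoter. The intronic and distal elav windows did not hold it. TATAAA was in both fne windows and in the distal elav window (32.5% of replicated windows). Pairs of TAAT and ATTA spaced by 2 or 3 bases, which 2.38% and 2.61% of replicated windows hold, were in none of the 5. A match is a run of letters and not a shown site, and no match says only that these letters are absent from this window.

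Other genes around the family's work were followed in 4 lists. The lists too were chosen with earlier results of these data known, so nothing is read from their counts against the shares of all genes. The relatives with similar RNA recognition motifs are Sxl, the master gene of sex determination, and ssx, and both had a replicated peak, as had 25.2% of all protein-coding genes. Sxl had 3, the strongest 411 bp downstream of a TSS at 1.73 and 2.07 times the median (mean 1.90 ± 0.243, SD, n = 2). The peak of ssx, 344 bp upstream of a TSS, reached 0.812 ± 0.0136 times. Sxl alone of the 2 had a peak called in replicate 1 by itself, where 21.0% of all genes had one.

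Among genes whose transcripts ELAV family proteins are known to process, 6 of 9 (66.7%) were nearest to a replicated peak, beside 25.2% of all protein-coding genes. The translational repressor gene brat had the strongest, 701 bp upstream of a TSS, with 4.96 and 6.36 times the median (5.66 ± 0.987, SD, n = 2). It was followed by nej, for a histone acetyltransferase (4.66 ± 1.41 times), pum, for a translational repressor, with 6 peaks (2.30 ± 0.175 times), and AGO1, for the microRNA-binding Argonaute protein (1.02 ± 0.563 times). AGO1 differed between libraries, at 0.623 and 1.42 times. ewg and arm had 0 peaks in each of the 4 thresholded sets, and Dscam1 had 0 in the replicated set and 3 in the optimal one. With replicate 1 by itself the count was 3 of 9, where 21.0% of all genes had a peak, and with replicate 2 by itself 7 of 9, where 29.3% had one. In the optimal set it was 7 of 9, where 32.1% of genes had one.

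Of other RNA-binding protein genes known from neurons 9 of 15 (60.0%) had a replicated peak, beside the same 25.2% of all genes. The strongest was at msi, for a protein of neural precursor division, 236 bp upstream of a TSS, with 6.86 and 8.34 times the median (7.60 ± 1.05, SD, n = 2). It was above the strongest elav peak in both replicates. Then came 3 more genes for RNA-binding proteins, mub (5.85 ± 0.91 times), shep with 8 peaks (2.83 ± 0.434 times) and cpo (2.66 ± 0.219 times). Both this list (9 and 11 genes in the own sets of replicates 1 and 2) and the list of processed targets hold genes with long stretches, with a median of 33988 and 16341 bp. Of all genes, 42.3% had a replicated peak in the length class of the first median and 35.6% in that of the second.

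The list named pan-neuronal also holds ChAT, VAChT, VGlut, Gad1 and Vmat, genes of particular transmitter types, so not all of its genes are pan-neuronal. Of its 18 genes, 2 (11.1%) were nearest to a replicated peak, beside 25.2% of all protein-coding genes. These were Syx1A, for a syntaxin of the synapse (1.98 ± 0.785 times the median, SD, n = 2), and Csp, for a synaptic vesicle chaperone (0.674 ± 0.0043 times). The others, among them nSyb, brp, futsch, para and Appl, had 0 in the replicated set, and the optimal set added cpx and VGlut. Their stretches had a median of 19610 bp, between those of the processed targets and of the other RNA-binding protein genes. In the length class of 19610 bp, 35.6% of all genes had a replicated peak. Whether the length had a part in the shares of the lists was not tested. The median strongest peak of the genes with one was 1.36, 1.66, 2.29 and 1.33 times the median peak in the 4 lists, in the order given, beside 1.19 over 3500 genes. No test was made between lists.

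**Figure D5:**
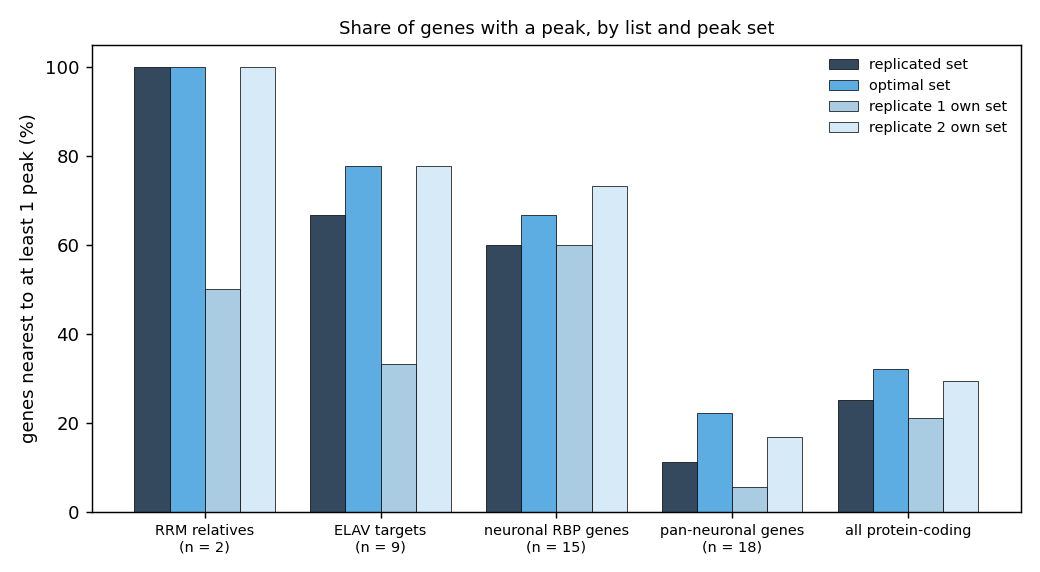
Share of genes nearest to at least 1 peak, in percent, for the 4 gene lists and for all protein-coding genes, in the replicated, optimal, replicate 1 and replicate 2 sets. In the replicated set the shares are 100%, 66.7%, 60.0%, 11.1% and 25.2%, and for the processed targets the share is 33.3% with replicate 1 by itself and 77.8% with replicate 2. The lists were chosen with earlier results of these data known, so the shares are descriptions.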

How the data were processed

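ChIP-seq peaks for the CG32532 fusion protein were analysed in 2 replicates. The deposited peak lists are on assembly dm6, per the labels. The names of aligner and peak caller were not given in the sources used here, nor their settings. The score deposited for a peak is its IDR score, where 830 stands for an IDR of about 0.01. The deposited signal is the peak strength from the authors' caller, on a scale not stated. Series lists derive from both replicates' alignments, per the deposited notes, and each sample's lists belong to 1 replicate, per the labels. The series lists' 16 further columns of per-replicate values were not used. Each ranked series list was tied to the thresholded set whose scores it holds.

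Summits were assigned to the nearest TSS of protein-coding genes (Ensembl release 115), a shared TSS counting for each gene. Each series peak took the strongest overlapping peak (at least 1 bp) of a replicate's ranked list, and medians are over the 5279 replicated peaks found in both lists. Motifs were searched on both strands. Assignment and motif search were tested on simulated data (Python 3.11.15, pandas 2.3.3).

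Members and lists were chosen with earlier results of these data known. Besides the 3 members, the text names the neighbouring genes by TSS, the 3 genes nearest in peak height to each bound member, up to 4 genes of each list with the strongest peak by pooled signal, and CG32532. List genes without a replicated peak were named after their values were seen. No protein sequences were compared.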

Additional observations from a re-analysis of the deposited data

How the results depend on the processing

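Rbp9 had 0 peaks under all 8 alternatives. From 0, the score of 1000 only, the limit of 5000 bp and the TSS of all annotated genes could give no other count. At elav 2 or 3 peaks were kept under all but the nearest gene body (1). fne had 1 peak with a score of 1000 only, 1 with summits within 5000 bp of a TSS, and 0 to 2 in the replicates' own sets. The strongest signals ran from 6.33 to 6.73 times the median at elav and from 0.897 to 0.954 at fne under the 3 alternatives that keep both replicates. With 1 replicate left out they are the single values, 6.06 to 6.98 and 0.847 to 1.00, which say nothing of stability. The own sets gave 1 to 2 RRM relatives, 3 to 7 processed targets and 1 to 3 genes of the list named pan-neuronal. The optimal set gave 4 of the last. Windows of 400 bp held 2 of the motifs at each of the 3 elav peaks in place of 1, and those of 100 bp held 0 in place of 2 at the fne internal promoter. The stricter limits hold fewer peaks by construction. A longer window can hold only as many motifs or more, and a shorter one only as many or fewer. The cause of the other shifts was not tested. The unknown depth of the libraries limits what the lack of a peak at Rbp9 can show.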

Other observations

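Close pairs of strong peaks were counted after the elav values were seen. Among the 373 replicated peaks with the highest pooled signal, the last of them the intronic elav peak, 4 genes had 2 summits within 1000 bp of each other. They were elav (863 bp apart), CG9663 (202 bp), the Polycomb group gene ph-p (571 bp) and CG4004 (969 bp). At CG9663 both summits were matched to the same peak in each replicate, so 2 separate peaks were not shown there within a replicate. The inclusion of elav was fixed, since its weaker peak of the pair set how many peaks were taken.

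The optimal set did not hold 286 of the replicated peaks, so the replicated set is not a part of it. At Csp 2 peaks were in the replicated set and 1 in the optimal set.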
